A study of Mus musculus with 5 samples.

Results

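On the morning of day 5 of pregnancy in the mouse, the uterine luminal epithelium that surrounded the attached embryo was compared with the luminal epithelium away from it. The comparison used 2 of the 5 RNA-seq libraries of the series, with 1 library a side, and covered every gene counted in them. Both came from wild-type C57BL/6N females, with the day of the vaginal plug taken as day 1. The labels name the side around the embryo the AM (antimesometrial) pole and the other the M (mesometrial) pole, so nearness to the embryo and position in the uterus cannot be told apart. The other libraries came from the luminal layer of the same strain and genotype on day 3 morning, day 4 morning and day 4 evening, before attachment, and show the level each gene had beforehand. The luminal layer is the tissue given by the labels, and the study's methods describe laser microdissection of luminal epithelium from frozen sections for its own *Lif* groups. For those groups RNA of separate samples was pooled into 1 library, and whether the libraries used here were pooled likewise, or how many mice or sites gave RNA to them, is not given in the sources used here. With no replicate on either side, no difference has a replicate check and none was tested for significance. All values compare these libraries and not the conditions in general.

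The luminal epithelium is the first maternal layer that a blastocyst meets. In the mouse the embryo attaches at the antimesometrial side of the lumen, the epithelium closes around it, and the chamber thus formed receives signals from embryo and stroma alike. Growth factors of the EGF family, prostaglandins, Lif and Wnt and Bmp ligands are long known at this site, and the epithelium next to the embryo is later removed by cell death and by uptake into trophoblast.

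The deposited counts summed to 16702914 on the side away from the embryo and 19136032 on the side around it, against 15334674 to 19529491 over the 5 libraries. Between 15274 and 15888 genes had at least 1 count. The ribosomal feature Rn45s and Lars2 together took 15.1% and 16.7% of the counts. Values are CPM, the count per 1000000 of a library size scaled by TMM, and a gene was tested where its CPM averaged 1 or more over the 5 libraries, which held for 12915 genes. A gene is called higher or lower where its log2 ratio, with a prior count of 2, reached 2, that is 4-fold. Brackets after a fold hold the 95% interval of the ratio of counts (Clopper-Pearson, exact), which covers counting error only. A fold against a library with 0 counts is a lower bound against a floor of 3 counts, or 0.161 CPM away from the embryo and 0.174 CPM around it, and leaves out the counting error of that floor. In tissue RNA, fewer cells of a type and less RNA per cell cannot be told apart.

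Around the embryo 757 genes (5.86% of those tested) were 4-fold higher and 641 (4.96%) 4-fold lower than away from it. Together they made up 10.8%, whereas the day 4 evening and morning libraries, which were taken before attachment, differed by 4-fold for 3.78% of genes, 2.38% higher and 1.39% lower in the evening. Scaling by library totals in place of TMM turned the split to 621 higher and 876 lower, so that 41.5% and not 54.1% of the called genes were higher. The median CPM of the higher genes was 2.76 on day 3, 1.78 and 2.09 on the morning and evening of day 4, 1.66 away from the embryo, and 24.5 around it. That of the lower genes was 6.91, 6.40, 5.82 and 6.33 in the same order, and 0.755 around the embryo. Thus in both sets the median away from the embryo lay near the medians before attachment, and the library around the embryo stood apart. The libraries before attachment took no part in calling a gene, only in the filter on low values. The level around the embryo was above all 3 earlier libraries for 646 of the 757 higher genes, against 4628 of the 12915 tested. The level away from it was below all 3 for 236 of them, against 4144 of the tested. Among the 641 lower genes, 563 were below all 3 around the embryo and 223 above all 3 away from it, against 5014 and 4083 of the tested. The shares for the side away from the embryo were thus near those of all tested genes. The filter bears on these counts. In all, 290 genes averaged under 1 CPM in the other 4 libraries and passed only through the library around the embryo, and 217 of them are among the higher genes. Likewise 91 passed only through the library away from it, with 30 among the lower genes. A call of such a gene rests in part on the filter, and their number is given beside a list's count of higher members where it is above 1. Counts of each list below are to be read beside the 5.86% higher and 4.96% lower of all tested genes. The lists were chosen with earlier results of these data known. In all, 15 of the genes selected for naming lay near enough to 4-fold that another scaling or prior count took them across it (*Calb1*, *Itga1*, *Pfkm*, *Spry2*, *Phgdh*, *Sc4mol*, *Mt1*, *Angpt2*, *Rdh10*, *Col3a1*, *Cldn5*, *Spink3*, *Krt19*, *Muc1* and *S100g*). For *Vangl2*, *Cyp26a1*, *Fth1* and *Krt18*, with ratios near 1, library totals turned the direction. At least 16-fold differences were seen for 240 of the higher and 52 of the lower genes. Of the higher genes, 197 reached 100 CPM around the embryo, and 85 had no count away from it. Gene length moved with the ratio only slightly: the median log2 ratio was -0.12 in the shortest and -0.01 in the longest 25% of genes.

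**Figure D1:**
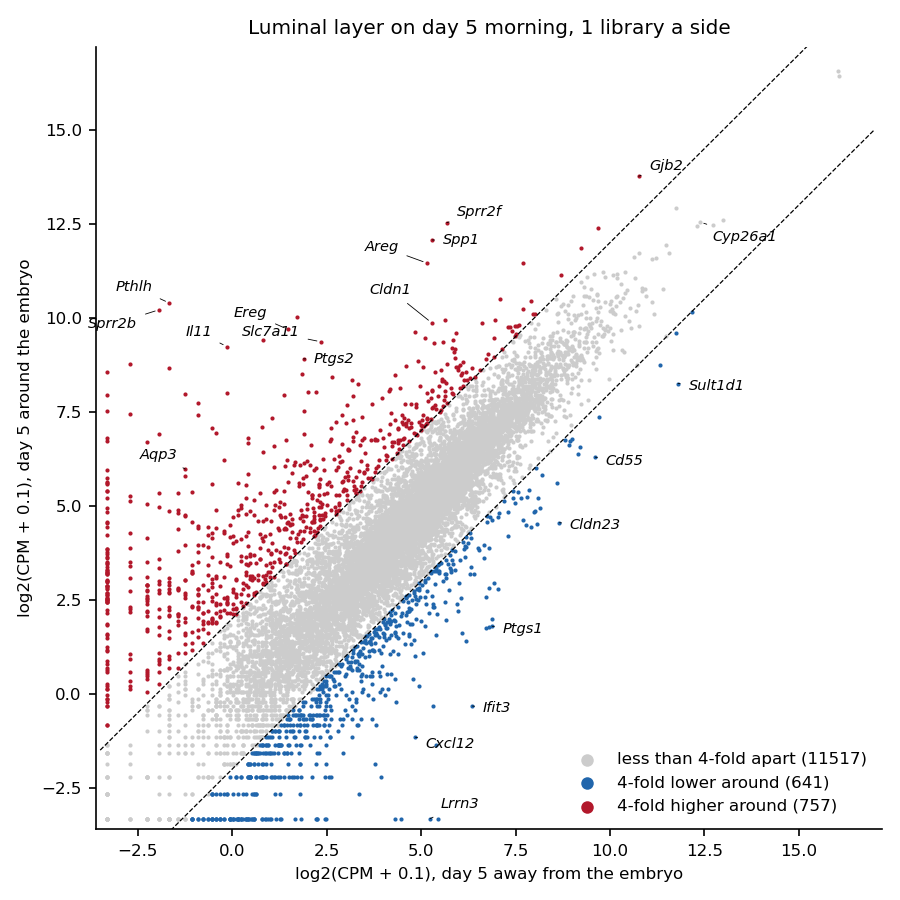
Level of each tested gene on day 5 morning away from the embryo (horizontal axis) and around it (vertical axis), both as log2(CPM + 0.1), with 1 library a side and 1 point a gene. The 757 genes 4-fold higher and the 641 genes 4-fold lower around the embryo are coloured, and the higher ones reach farther from the diagonal than the lower ones.

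Markers listed for luminal epithelium were found in both libraries. All 17 luminal epithelial markers were measured on both sides, from 37.96 to 1443 CPM away and from 37.7 to 1524 CPM around. Their summed level was 6401 CPM away and 10702 CPM around, and 2 of them were 4-fold higher around the embryo and 0 lower. These were the transcription factor gene *Elf3*, at 48.04 and 649.7 CPM, and *Krt19*, at 37.96 and 159 CPM. *Krt19* had been at 866, 763 and 442 CPM before attachment, so it was lower in both day 5 libraries than in any earlier one. *Epcam*, which encodes an epithelial adhesion molecule, was at 635 CPM away and 1524 CPM around. In 12 of the 17 the CPM was higher around. The others were lower, among them *Ehf* at 203 and 94.5 CPM and *Msx1* at 196 and 97.1 CPM. Whether these markers set luminal epithelium apart from other epithelium was not tested.

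Markers of embryo and trophoblast moved with the comparison. Of 26 embryo and trophoblast markers, 23 were counted around the embryo and 9 away from it, and 9 were counted around the embryo while at 0 in each of the other 4 libraries. Their summed level over the whole list was 16.7, 33.9 and 31.3 CPM before attachment, 69.2 away and 384 around. The filter was passed by 12 members, some of them only through the library around the embryo, so no share of these is given. *Dppa5a*, a gene of pluripotent cells, had 0 counts away and 1916 around, *Plac1*, a trophoblast gene, had 1 and 659, and *Eomes* had 26 and 609. The defining markers of trophoblast and inner cell mass, *Cdx2*, *Pou5f1* and *Nanog*, named as such whatever their values, stood at low counts around the embryo, 22, 68 and 10, and at 0 away from it. The part of embryo RNA in any single difference was not tested.

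Other cell types moved less evenly. The summed level of 20 stromal markers was 835 CPM away and 669.9 CPM around, with 3 members 4-fold higher and 3 lower of 19. The collagen-binding proteoglycan genes *Dcn* and *Lum* were lower around, *Dcn* at 91.6 and 14.1 CPM and *Lum* at 53.5 and 6.68 CPM. In contrast *Hand2*, a progesterone-dependent transcription factor gene of the stroma, went from 20.9 to 132 CPM and *Bmp2* from 7.51 to 41.8 CPM. Smooth muscle markers summed to 58.97 and 436 CPM, most of the latter *Des*, which encodes the intermediate filament desmin (19.8 and 354 CPM). Endothelial markers summed to 61.2 and 119 CPM, most of the latter *Cdh5* (7.13 and 71.4 CPM). Over the tested members, 2 of 7 muscle markers were 4-fold higher and 0 lower, and 2 and 1 of 9 endothelial ones. Leukocyte and blood markers summed to 121 and 123 CPM. Within that list 6 of 13 were 4-fold lower around the embryo, among them the natural killer cell gene *Ncr1* at 86 and 0 counts and the macrophage gene *Emr1* at 190 and 25. The neutrophil gene *S100a8* went the other way, with 6 and 955 counts, and was 1 of 2 members 4-fold higher. Both of these passed the filter only through the library around the embryo. *Cd68*, also a macrophage gene, was higher around as well, at 220 and 670 counts, though short of 4-fold. Uterine gland markers summed to 3570.1 CPM away and 319 CPM around, almost all of it *Sult1d1*, a sulfotransferase gene. Of 5 tested members, 3 were 4-fold higher around and 1 lower, *Sult1d1* itself, with a median log2 ratio of 2.23. Among the higher ones, the gland-defining *Foxa2* had 2 and 21 counts and stood at 1.84, 2.84 and 0 CPM before attachment. Of these higher ones, 1 passed the filter only through the library around the embryo. The part of these cells in the differences below was not tested.

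**Figure D2:**
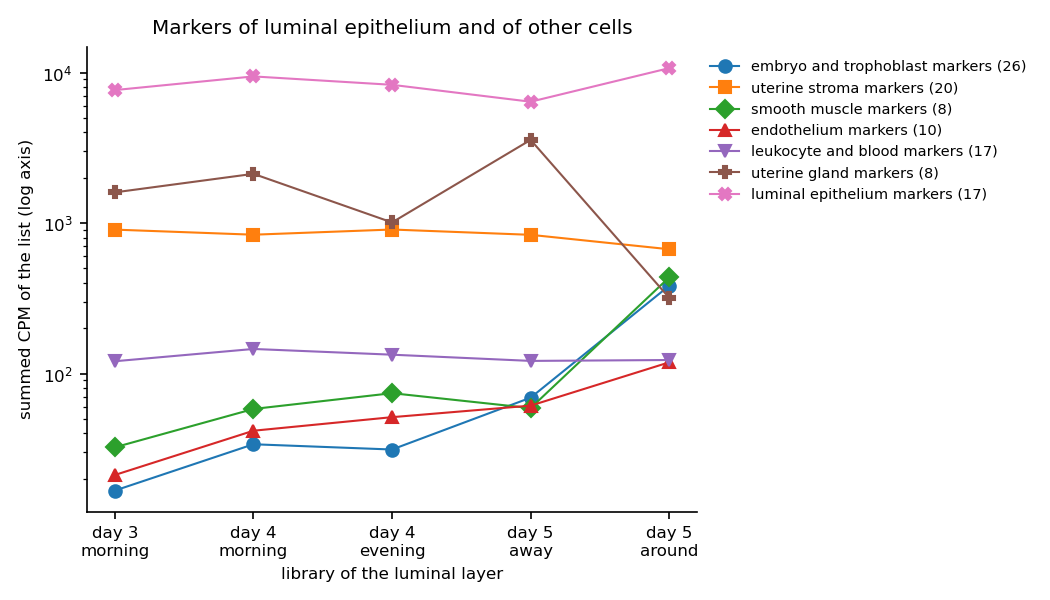
Summed CPM (log axis) of the markers of luminal epithelium and of 6 other cell groups in the 5 libraries of the luminal layer, 1 line a list. Embryo and trophoblast markers stand at 384 CPM around the embryo and at most 69.2 CPM in the other libraries.

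The 15 genes with the largest ratios among those of at least 20 CPM around the embryo had between 0 and 15 counts away from it. Of these, only *Sprr2b*, *Sprr2d* and *Pthlh* averaged 1 CPM or more in the other 4 libraries. The rest passed the filter only through the library around the embryo, so their low values elsewhere are in part a result of how they were selected. *Sprr2b*, which encodes a small proline-rich protein of the cornified envelope, was at 4.89, 0, 3.29, 0.161 and 1186 CPM on day 3, on day 4 (morning, then evening) and on day 5 (away, then around). The library around the embryo stood apart from the other 4, with 20433 counts against 3 away from the embryo, a ratio of 7376-fold [2524, 35772]. *Pthlh*, which encodes the parathyroid hormone-related protein, was at 16.8, 3.01, 23.7, 0.214 and 1343 CPM in the same order, 6261-fold [2445, 22979.7] higher around the embryo. In *Pthlh* (chr6:147252110-147264085) the level away from the embryo was also below that of every library before attachment. *Il11* (chr7:4772378-4778141), a gp130 cytokine gene needed for decidualization, was at 0.173, 0.445, 0.0632, 0.804 and 601 CPM and 748-fold [453, 1337] higher around. Outside the library around the embryo, *Il11* stayed under 1 CPM. *Nppc*, the gene of C-type natriuretic peptide, had 0 counts away and 3149 around, at least 1137-fold higher. The protease gene *Prss56* had 1 and 7489 counts, *Crct1*, a gene of the epidermal differentiation complex, 0 and 1811, the keratin gene *Krt20* 2 and 1770, and *Nat8l*, whose enzyme makes N-acetylaspartate, 6 and 4332. The other members of the 15 were *2010109I03Rik*, *BC053393*, *BC051665*, *Gm1045*, *Sprr2d* and the pluripotency-associated *Dppa5a* and *Dppa1*.

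Of the 15 genes with the largest ratios in the other direction, those with a known role are given first. *Ptgs1* (chr2:36230426-36252269), which encodes cyclooxygenase 1, was at 300.1, 263, 129, 118 and 3.37 CPM in the same order of libraries. It was 34.9-fold [26.9, 46.2] lower around the embryo, and the level away from the embryo lay near that of day 4 evening. *Sostdc1*, the gene of a secreted Wnt and Bmp antagonist, had 407 counts away and 0 around, at least 125-fold lower. *Cldn8*, a tight junction claudin gene, was at 62.2, 38.5, 16.6, 67.9 and 2.96 CPM in the same order, 22.9-fold [17.3, 30.95] lower around. *Cxcl12*, a chemokine gene, was at 28.7 CPM away and 0.348 CPM around, and *Fmo2*, a flavin monooxygenase gene, at 42.1 and 0.290 CPM. *Sostdc1* and *Fmo2* averaged under 1 CPM in the other 4 libraries and passed the filter only through the library away from the embryo. Their low values elsewhere are thus in part a result of how they were selected. *Ifit3*, *I830012O16Rik* and *Gm14446* lie beside each other on chromosome 19 and may share reads, so their separate values are uncertain. They had 1527, 743 and 805 counts away and 12, 12 and 0 around. The remaining genes of the 15 were *Lrrn3*, *Ptprr*, *Lrrc17*, *Slc5a11*, *Rbm24*, *Cndp1* and *Gdf10*, a gene of the Bmp family.

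EGF-like growth factors act through ErbB receptors, and heparin-binding EGF is a known signal between blastocyst and epithelium. Of 12 tested genes of ligands and receptors, 6 were 4-fold higher and 1 lower around the embryo, with a median log2 ratio of 2.12 against -0.05 for all tested genes. These shares were 50% and 8.33%, against 5.86% and 4.96% of all genes. Of the higher ones, 2 passed the filter only through the library around the embryo. *Areg*, the gene of amphiregulin, was at 25.7, 65.8, 63.5, 35.5 and 2804 CPM in that order (day 3, day 4 morning and evening, day 5 away and around), 78.99-fold [73.2, 85.4] higher around. *Ereg*, the gene of epiregulin, was at 0.518, 1.56, 2.97, 2.68 and 824 CPM in the same order, 308-fold [233, 415] higher. Both stood at or near their level before attachment away from the embryo, and only the library around it was high. *Btc*, the betacellulin gene, was at 6.39, 2.90, 4.42, 15.4 and 232 CPM, and *Hbegf*, the gene of heparin-binding EGF, at 23.5, 7.46, 13.8, 46.96 and 316 CPM, 15.1-fold [13.4, 17.1] and 6.73-fold [6.27, 7.24] higher around. The fifth ligand gene, *Epgn* of epigen, had 2 and 88 counts. *Areg*, *Ereg*, *Epgn* and *Btc* lie within 375 kb of each other on chromosome 5 (chr5:91027517-91402994), and these neighbours were all 4-fold higher. Per length, the level around the embryo was 2338 RPKM for *Areg*, 199 for *Ereg*, 133 for *Hbegf* and 80.7 for *Btc*, so *Areg* had the highest level among these ligands. The neuregulin gene *Nrg4* was the member that was lower, at 19.9, 22.2, 13.9, 4.24 and 0.116 CPM. The receptor genes *Egfr*, *Erbb2* and *Erbb3*, named after their values were seen, were between the limits, at 18.1, 65.6 and 49.2 CPM away and 30.1, 46.5 and 30.1 CPM around.

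Prostaglandins are made from arachidonic acid by cyclooxygenases and terminal synthases. Over 13 tested genes of this pathway, the median log2 ratio was -0.13, with 3 higher and 1 lower. The cyclooxygenase genes were found at opposite ends: *Ptgs2* (chr1:150100124-150108012), the inducible cyclooxygenase, was at 89.4, 18.7, 61.4, 3.59 and 479 CPM in the order of the libraries above, 133-fold [105, 172] higher around the embryo, while *Ptgs1* was the lower gene. Away from the embryo *Ptgs1* stood at 41.1 and *Ptgs2* 0.867 RPKM, and around it 1.18 and 116 RPKM, so the order of their levels per length was the opposite on the other side. *Ptges*, which encodes a synthase of prostaglandin E2, was at 3.81 CPM away and 73.4 CPM around (19.3-fold [15.2, 24.8]), and *Slco2a1*, a prostaglandin transporter gene, at 1.18 and 36.9 CPM (31.3-fold [20.5, 50.2]).

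**Figure D3:**
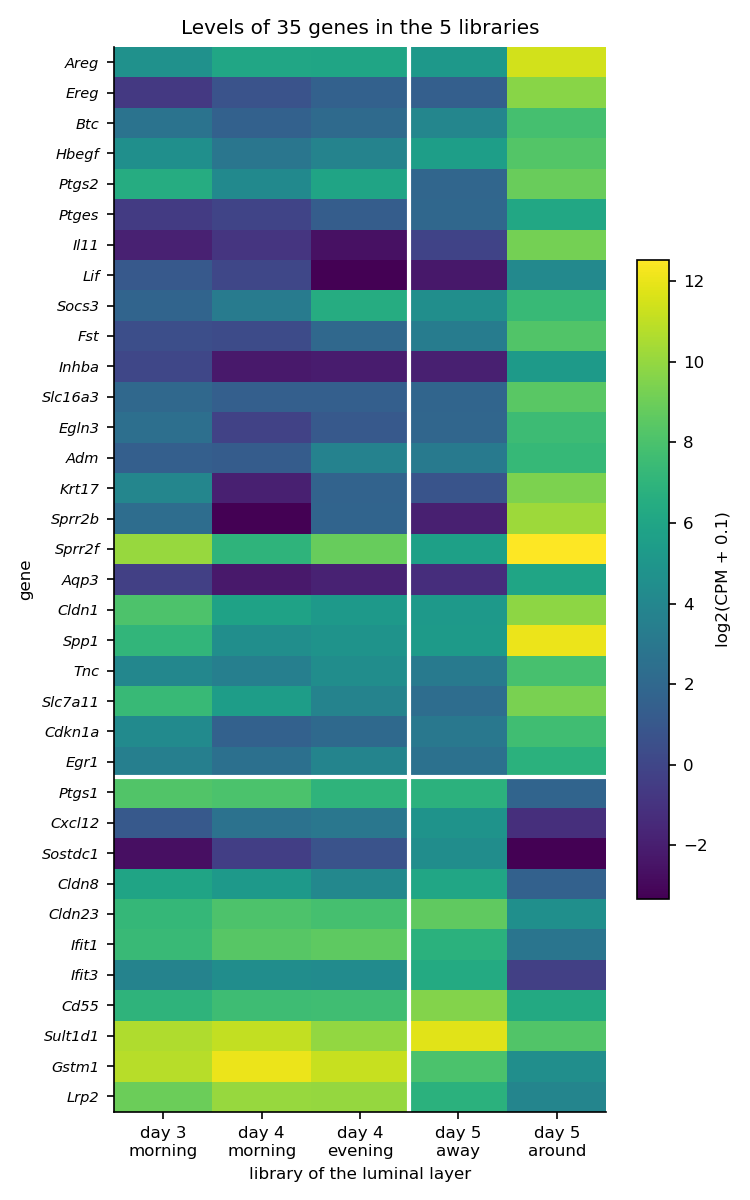
Levels of selected genes as log2(CPM + 0.1), by colour, in the 5 libraries of the luminal layer, with a white horizontal line between genes 4-fold higher and genes 4-fold lower around the embryo and a white vertical line between libraries before and on day 5. *Il11*, at 0.804 CPM away and 601 CPM around, is dark in every library but the last, and *Ptgs1*, at 118 and 3.37 CPM, is darkest in the last.

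Lif and related cytokines signal through the shared receptor gp130 to Stat3. Of 19 tested genes of ligands, receptors and Stat feedback, 6 were 4-fold higher around the embryo and 0 lower, with a median log2 ratio of 1.24. Of the higher ones, 2 passed the filter only through the library around the embryo. These were *Il11* and the ligand gene *Lif* itself, which had 2 counts away and 304 around, a ratio of 165-fold [45.2, 1365]. *Lif* was at 2.07, 0.947, 0, 0.107 and 17.7 CPM over the 5 libraries. *Il6* had 0 and 39 counts but stood at 37.8, 13.3, 16.9, 0 and 2.26 CPM over the 5 libraries, so both day 5 libraries were below the earlier ones. *Socs3*, a Stat3 target that damps the pathway, was at 3.34, 9.69, 90.1, 23.2 and 161 CPM from day 3 morning to day 5 around the embryo, 6.94-fold [6.27, 7.69] higher around. Day 4 evening and day 5 around the embryo were thus the high libraries for *Socs3*. *Stat3* differed less, from 358 to 513 CPM, a ratio of 1.43-fold [1.39, 1.48], and the kinase gene *Jak2* was at 147 and 68.3 CPM.

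Immediate early genes are switched on within minutes by growth factors and stress. Of 29 tested, 11 were 4-fold higher and 0 lower around the embryo, and the median log2 ratio was 1.52. Of the higher ones, 2 passed the filter only through the library around the embryo. The transcription factor gene *Egr1* was at 11.5, 5.74, 13.9, 6.00 and 110.0 CPM over the 5 libraries, 18.3-fold [15.1, 22.4] higher around. *Egr2* had 2 counts away and 562 around, and *Fosl1*, which encodes a subunit of AP-1, 8 and 116. Both passed the filter only through the library around the embryo. The lowest ratio in the list was that of *Spry2*, an inhibitor of growth factor signalling, at 23.1, 42.1, 47.8, 89.7 and 27.00 CPM, and the library away from the embryo was the high one.

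The hypoxia response raises glycolytic enzymes, glucose and lactate carriers and vascular growth factors through Hif. Of 32 tested genes of glycolysis and this response, 16 were 4-fold higher around the embryo and 0 lower, 50% against 5.86% of all genes. The list was chosen with earlier results of these data known, so this share is no independent finding. The median log2 ratio of the list was 2.06, and its median level was 29.6, 35.9, 36.3 and 34.1 CPM in the first 4 libraries and 178 CPM around the embryo. *Slc16a3*, the gene of a lactate exporter, was at 3.92, 2.67, 2.72, 3.48 and 361 CPM, 104-fold [81.3, 135] higher around. *Egln3*, a Hif prolyl hydroxylase gene that is itself a Hif target, was at 5.36, 0.780, 2.09, 3.65 and 185 CPM, and *Ankrd37*, another Hif target, at 7.77, 3.29, 1.77, 3.65 and 119.6 CPM, 50.7-fold [39.9, 65.4] and 32.8-fold [25.8, 42.4] higher. In each of these genes the other 4 libraries stood below 10 CPM. *Vegfa*, the vascular growth factor gene, was at 147 and 543 CPM, 3.69-fold [3.54, 3.85] and so short of the limit. *Adm*, the gene of the vasodilator adrenomedullin, was at 2.65, 2.34, 12.7, 9.11 and 155 CPM. The lowest ratio was that of *Pfkm*, the muscle phosphofructokinase gene, at 68 and 17 counts. Members named after their values were seen were the glucose transporter gene *Slc2a3* at 7.40 and 171 CPM, *Hk2* of hexokinase at 17.96 and 274, *Pgk1* at 59.5 and 486, and *Ldha* of lactate dehydrogenase at 602 and 3702. *Slc2a3* had been higher before attachment, at 138, 488 and 609 CPM, and so had *Hk2*, at 55.9, 85.4 and 96.01 CPM. For these, then, the library away from the embryo was the low one of the 5. *Gapdh* and *Eno1*, which have many near-identical copies in the mouse genome, were listed at no more than 15.97 and 0.406 CPM in any library, and their values are uncertain.

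Promoters of *Ankrd37* and *Car9*, a Hif-regulated carbonic anhydrase gene, are shown as members of this list whose promoters hold the core of the hypoxia response element. *Car9*, named after its values were seen, had 16 counts away and 310 around. The sequences are from RefSeq on GRCm38.p6, 5′ to 3′ along the gene, with 250 bases before and 50 after the start. *Ankrd37* is at chr8:45999801-46000100 on the minus strand and *Car9* at chr4:43506776-43507075 on the plus strand. Capitals mark TACGTG on either strand and, in *Car9* at 77 bases before the start, the AP-1 motif TGANTCA.
Ankrd37: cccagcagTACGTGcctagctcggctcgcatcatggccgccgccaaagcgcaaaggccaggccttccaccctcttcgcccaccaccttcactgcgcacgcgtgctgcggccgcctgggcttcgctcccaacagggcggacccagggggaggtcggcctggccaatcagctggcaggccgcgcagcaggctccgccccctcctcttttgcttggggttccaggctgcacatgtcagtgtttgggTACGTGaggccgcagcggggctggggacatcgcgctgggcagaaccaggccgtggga
Car9: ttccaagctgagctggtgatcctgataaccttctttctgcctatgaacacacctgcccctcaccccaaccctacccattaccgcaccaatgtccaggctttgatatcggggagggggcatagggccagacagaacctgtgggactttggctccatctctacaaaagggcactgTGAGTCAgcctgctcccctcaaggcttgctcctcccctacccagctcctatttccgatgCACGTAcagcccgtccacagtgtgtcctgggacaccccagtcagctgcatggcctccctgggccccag
The matches of TACGTG began 242 and 7 bases before the start in *Ankrd37* and 18 bases before it in *Car9*, where it reads CACGTA. A promoter was matched for 8118 of the tested genes with a single promoter in the table. TACGTG was held by 3.7% of these, by 5.19% of the 443 promoters of higher genes, by 1.01% of the 397 of lower genes and by 6 of the 20 of the hypoxia list. The list was built from known Hif targets, so its share is no independent finding, and a match describes letters and not a site in use.

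Keratins and small proline-rich proteins build the toughened surface of stratified epithelia, and several also respond to estrogen in the uterus. Of 21 tested genes of surface mucins, keratins and the cornified envelope, 14 were 4-fold higher around the embryo and 0 lower, with a median log2 ratio of 2.95. Of the higher ones, 3 passed the filter only through the library around the embryo. *Sprr2f* (chr3:92365187-92366442) was at 1093, 125, 464, 51.1 and 5909 CPM in the 5 libraries, 116-fold [109, 123] higher around than away. Of the 4 Sprr2 genes whose promoters are shown, it was the one that also stood high on day 3 morning. *Sprr2d* and *Sprr2e* had 4 and 15 counts away and 6961 and 4398 around. *Sprr2a1*, named for its absence, had 0 counts in all 5 libraries. Sprr2 genes are near copies of each other and may share reads, so their separate values are uncertain. *Krt6a*, a keratin gene of wounded skin, had 0 counts away and 815 around, at least 294-fold higher. *Muc1*, the gene of a surface mucin, was at 139.7, 83.9, 109, 49.1 and 242 CPM, 4.93-fold [4.59, 5.30] higher around. *Krt8* and *Krt18*, the keratins of simple epithelia, were between the limits, with 430.1 and 1088 CPM away and 818 and 1138 CPM around. *Krt23* had the lowest ratio, at 6.11 and 2.09 CPM. In a list of estrogen-responsive secretory genes that shares several Sprr2 genes and *Muc1*, 7 of 14 were 4-fold higher and 0 lower, with a median log2 ratio of 2.02. *Lcn2*, the gene of an iron-carrier binding protein in that list, was at 60.8 and 414 CPM, and *Ccnd1*, the cyclin D1 gene, at 34.4 and 11.1 CPM.

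The Sprr2 promoters are printed because these neighbouring genes on chromosome 3 were high together around the embryo. They are from RefSeq on GRCm38.p6, all on the plus strand, and lie at chr3:92316455-92316754 (*Sprr2b*), chr3:92338890-92339189 (*Sprr2d*), chr3:92351893-92352192 (*Sprr2e*) and chr3:92364937-92365236 (*Sprr2f*). Capitals mark the AP-1 motif TGANTCA, which reads TGAGTCA in each.
Sprr2b: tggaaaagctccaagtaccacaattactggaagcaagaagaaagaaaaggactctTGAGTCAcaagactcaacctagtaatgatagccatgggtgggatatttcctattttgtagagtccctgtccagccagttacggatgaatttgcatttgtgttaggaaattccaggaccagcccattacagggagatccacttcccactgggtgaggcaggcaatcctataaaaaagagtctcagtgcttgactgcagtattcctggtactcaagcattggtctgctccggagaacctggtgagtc
Sprr2d: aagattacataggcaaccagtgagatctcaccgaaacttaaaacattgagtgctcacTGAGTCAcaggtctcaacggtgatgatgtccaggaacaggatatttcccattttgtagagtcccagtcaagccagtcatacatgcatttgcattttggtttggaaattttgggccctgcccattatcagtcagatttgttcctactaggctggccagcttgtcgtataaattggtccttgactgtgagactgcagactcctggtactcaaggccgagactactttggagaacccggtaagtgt
Sprr2e: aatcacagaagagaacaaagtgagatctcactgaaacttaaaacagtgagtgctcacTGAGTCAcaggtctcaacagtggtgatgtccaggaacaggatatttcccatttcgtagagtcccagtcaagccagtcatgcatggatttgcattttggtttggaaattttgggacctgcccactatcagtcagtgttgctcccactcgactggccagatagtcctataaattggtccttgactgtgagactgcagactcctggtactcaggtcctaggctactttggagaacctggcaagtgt
Sprr2f: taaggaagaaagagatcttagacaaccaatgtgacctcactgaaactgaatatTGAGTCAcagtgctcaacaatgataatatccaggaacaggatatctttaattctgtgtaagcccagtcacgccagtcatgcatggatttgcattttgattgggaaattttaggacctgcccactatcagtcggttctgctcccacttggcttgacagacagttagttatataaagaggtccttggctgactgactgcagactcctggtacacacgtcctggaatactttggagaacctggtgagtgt
The motif began 195, 193, 193 and 197 bases before the start in this order. The promoters of *Sprr2d* and *Sprr2e* had the same base at 264 of 300 positions. Positions were compared without gaps, which misses likeness that is shifted by some bases. Since Sprr2 genes are near copies of each other, the matches in these promoters are not separate observations. TGANTCA was held by 4.87% of all promoters, by 9.93% of those of higher genes and by 7.05% of those of lower genes. For the Stat motif TTCCNGGAA the shares were 1.4%, 1.13% and 1.26%, and for the E-box CACGTG 10.3%, 8.8% and 9.57%. Both strands were searched for each motif.

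Genes of the Wnt and Bmp families were found on both sides. Among 22 tested Wnt ligand, antagonist and readout genes, 5 were 4-fold higher and 4 lower around the embryo, and the median log2 ratio was -0.38. The ligand gene *Wnt9a* was at 1.50 CPM away and 24.04 CPM around, and *Notum*, whose enzyme inactivates Wnt proteins, at 5.58 and 40.6 CPM. The antagonist gene *Sfrp5* was higher around (4 and 143 counts), whereas *Dkk2* and *Dkk3* were lower, at 17.3 and 13.5 CPM away and 0.987 and 2.44 CPM around. Wnt antagonists were thus among the genes of either direction. *Sfrp5* passed the filter only through the library around the embryo. Of the lower members, *Sostdc1* passed it only through the library away from the embryo. *Wnt7a*, an epithelial ligand gene, was at 181 and 447 CPM. Among 20 tested genes of Bmp, activin and Tgfb signalling, 7 were higher and 4 lower, with a median log2 ratio of 1.10. *Fst*, the gene of the activin and Bmp binding protein follistatin, was at 1.32, 1.11, 4.05, 9.92 and 303 CPM over the 5 libraries, 30.6-fold [26.4, 35.6] higher around. The gene of an activin subunit, *Inhba*, had 3 counts away and 694 around, a ratio of 251-fold [85.4, 1218]. *Inhba* passed the filter only through the library around the embryo. *Bmp2* was 5.57-fold [4.64, 6.72] higher around, at 1.44, 2.56, 3.86, 7.51 and 41.8 CPM, whereas the Bmp antagonist gene *Nog* was at 5.36, 8.46, 7.27, 9.70 and 0.465 CPM and 20.9-fold [10.4, 49.1] lower. *Bmp5* and *Bmp3* were lower too, with 38 and 30 counts away and 2 each around.

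Junction genes were 4-fold apart at about the share of all genes, and no polarity gene was. Of 31 junction genes, 2 were 4-fold higher and 2 lower, 6.45% each way against 5.86% and 4.96% of all genes, with a median log2 ratio of 0.81. The claudin gene *Cldn1* was at 276, 56.6, 38.7, 38.7 and 932 CPM, 24.1-fold [22.3, 25.97] higher around the embryo, and *Cldn6* had 6 and 138 counts. *Cldn6* passed the filter only through the library around the embryo. *Cldn8*, above, and *Cldn23* were the lower members, *Cldn23* at 150.3, 278, 235, 404 and 23.3 CPM, 17.4-fold [15.7, 19.2] lower around. *Cdh1*, the E-cadherin gene, was between the limits at 430.5 and 1316 CPM, as were *Cldn3*, *Cldn4* and *Cldn7*. None of the 25 apical and planar polarity genes was 4-fold apart, and their median log2 ratio was 0.27, which turned to -0.0382 with library totals. The planar polarity genes *Vangl2* and *Vangl1* were at 12.9 and 47.98 CPM away and 14.6 and 26.9 CPM around, a ratio for *Vangl2* of 1.13-fold [0.945, 1.36]. *Podxl*, the gene of an apical sialomucin, had the highest ratio of that list, at 35.7, 65.8, 16.6, 11.04 and 34.9 CPM, so the library away from the embryo was the low one.

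Of 28 integrin and basement membrane genes, 7 were 4-fold higher and 1 lower, with a median log2 ratio of 1.13. *Spp1*, the gene of the secreted integrin ligand osteopontin, was at 139.7, 23.1, 27.8, 39.1 and 4292 CPM over the 5 libraries, 109.7-fold [102, 118] higher around. *Tnc*, which encodes tenascin C, was at 16.2, 11.4, 22.1, 9.06 and 240.1 CPM, 26.5-fold [22.7, 31.1] higher. The osteopontin receptor subunit gene *Itgb3* was at 1.18 and 10.9 CPM. The lower member was the collagen receptor gene *Itga1*, at 2.07, 1.34, 2.65, 22.8 and 5.40 CPM, which was higher in both day 5 libraries than before. Of 22 matrix protease and inhibitor genes, 7 were higher and 1 lower, with a median of 0.65. Of the higher ones, 3 passed the filter only through the library around the embryo. The inhibitor genes *Serpine2* and *Timp1* were among the higher members, *Serpine2* at 68.7, 263, 171, 56.5 and 583 CPM, 10.3-fold [9.69, 11.02], and *Timp1* at 2.19, 2.45, 16.4, 6.81 and 65.4 CPM, 9.61-fold [7.99, 11.6]. The protease-like gene *Prss35* was lower, at 0, 0, 0.632, 104 and 5.81 CPM, 17.9-fold [14.7, 22.1], and was high only in the library away from the embryo.

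A further list held fluid and ion channels, exchangers and their regulators. Of 23 tested, 5 were 4-fold higher and 2 lower around the embryo, with a median log2 ratio of 0.77. Of the higher ones, 2 passed the filter only through the library around the embryo. *Aqp3*, a channel gene for water and glycerol, had 6 counts away and 1081 around, a ratio of 195-fold [89.4, 533]. *Slc26a4*, an anion exchanger gene, was at 2.04 and 64.8 CPM (31.8-fold [23.03, 45.2]). *Aqp3* and *Slc26a4* were the members that passed the filter only through that library. The subunits of the epithelial sodium channel did not move together: *Scnn1b* was at 0.751 and 19.3 CPM and *Scnn1a* at 8.26 and 3.25 CPM. *Tmprss2*, a membrane protease gene, and the aquaporin gene *Aqp11* were the lower members, at 509 and 72.1 CPM away and 110.0 and 14.8 CPM around, with *Tmprss2* at 168, 233 and 209 CPM before attachment. *Sgk1*, a kinase gene of sodium channel control, was at 299 and 413 CPM.

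Of 23 steroid receptor and progesterone-responsive genes, 1 was 4-fold higher and 3 lower around the embryo, with a median log2 ratio of -0.17. These shares were 4.35% and 13.0%, against 5.86% and 4.96% of all genes. The receptor genes *Pgr* and *Esr1* were at 26.6 and 132 CPM away and 35.1 and 78.3 CPM around, and *Pgr* had been at 415, 166 and 143 CPM before attachment. *Ihh*, a progesterone target gene that signals to the stroma, was at 159, 230.2, 545, 674 and 2171 CPM, 3.22-fold [3.16, 3.29] higher around and short of the limit. *Irg1*, the gene of the itaconate enzyme, was the higher member, at 377, 937, 456, 815 and 5351 CPM, 6.57-fold [6.46, 6.68]. *Lrp2*, the gene of the endocytic receptor megalin, was at 496, 1063, 1030.4, 110.1 and 14.6 CPM, 7.53-fold [6.60, 8.61] lower around, and *Il13ra2*, a decoy receptor gene, at 8.90 and 0.348 CPM. *Calb1*, which encodes a calcium-binding protein, was at 72.8 and 17.8 CPM and had already been far lower away from the embryo than on day 4, at 5468, 7978 and 4621 CPM in the libraries before attachment. Of 16 retinoid genes, 4 were higher and 1 lower, with a median log2 ratio of 0.78. *Aldh1a3*, whose enzyme makes retinoic acid, had 8 counts away and 3660 around, a ratio of 495-fold [251, 1149]. *Stra6*, the gene of a retinol uptake receptor, was at 131, 72.7, 22.2, 11.04 and 111 CPM, high on day 3 as well as around the embryo. *Rdh10*, the gene of a retinol dehydrogenase, was at 179.6 and 886 CPM, whereas the retinoic acid binding protein gene *Crabp2* had 17 and 1 counts. *Cyp26a1*, which degrades retinoic acid, was at 34.8, 24.1, 666, 5316 and 5985 CPM, a ratio of 1.13-fold [1.12, 1.14], so that it was high in both day 5 libraries and in neither library of a morning before attachment.

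The epithelium around the embryo is later lost, and regulators of growth arrest and cell death were listed for that reason. Of 19 p53 and growth arrest genes, 3 were 4-fold higher and 0 lower around the embryo, with a median log2 ratio of 0.31. *Cdkn1a*, the gene of the cell cycle inhibitor p21, was at 18.9, 2.90, 4.23, 8.10 and 203 CPM, 25.1-fold [21.3, 29.7] higher around, and *Phlda3* at 19.5 and 155 CPM. The kinase gene *Plk2* was at 68.98, 151, 186, 15.9 and 94.4 CPM, so that it was lower around the embryo than in either day 4 library and lowest away from it. Of 30 cell death regulators, 2 were higher and 2 lower, 6.67% each way and so near the 5.86% and 4.96% of all genes, with a median log2 ratio of -0.09. *Pmaip1*, which encodes the pro-death Bcl2 family protein Noxa, was at 118, 49.7, 66.9, 60.2 and 773 CPM, 12.8-fold [12.1, 13.7] higher around. *Ripk3*, a kinase gene of necroptosis, was at 8.35, 2.90, 2.91, 13.6 and 109 CPM, 7.97-fold [6.99, 9.12] higher. The survival gene *Bcl2* was lower, at 9.86 and 1.97 CPM, and so was *Casp12*, at 50.2 and 11.7 CPM. None of the 34 cell cycle and DNA replication genes was 4-fold apart, and their median log2 ratio was -0.06, next to -0.05 for all genes. Their median level was 54.3 CPM on day 3 morning, 10.02 and 8.09 on day 4, 16.4 on the far side and 13.99 around the embryo, so day 3 morning was the high library. The lowest ratio in the list was that of the proliferation marker gene *Mki67*, at 41.7 and 13.9 CPM. The highest was that of *Rrm2*, at 23.3 CPM away and 56.4 CPM around.

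Among the pathway lists, interferon-stimulated genes and glutathione enzymes had the most members lower around the embryo. Of 29 tested interferon-stimulated genes, 0 were 4-fold higher and 8 lower, 27.6% against 4.96% of all genes, with a median log2 ratio of -1.24. This list too was chosen with earlier results of these data known. *Ifit1* was at 173, 347, 395, 110.2 and 6.97 CPM, 15.8-fold [13.1, 19.2] lower around, and *Ifit2* at 13.99, 12.03, 9.61, 13.6 and 0.174 CPM. *Ifit3* was at 13.6, 21.5, 19.8, 81.9 and 0.697 CPM, so that it was highest away from the embryo and lowest around it. The highest ratio in the list was that of *Isg20*, at 109.7, 255, 606, 189 and 416 CPM over the 5 libraries. Leukocyte markers were mixed, with 6 of 13 members 4-fold lower and 2 higher around the embryo and sums of 121 and 123 CPM. Their part was not tested. Of 29 glutathione, antioxidant and metallothionein genes, 3 were higher and 7 lower, with a median log2 ratio of -0.35. *Gstm1* and *Gstm7*, glutathione transferase paralogs that may share reads, were at 267 and 12.8 CPM away and 22.9 and 0.523 CPM around. *Gpx3*, a secreted glutathione peroxidase gene, was at 13.1, 6.35, 2.84, 386 and 48.5 CPM, 7.96-fold [7.41, 8.56] lower, and was high only away from the embryo. In contrast *Hmox1*, the gene of heme oxygenase 1, was at 11.7, 14.8, 30.3, 40.2 and 637 CPM, 15.9-fold [14.7, 17.1] higher around. The metallothionein genes *Mt1* and *Mt2* were at 570.4, 1467, 1738, 258 and 1099 CPM and 184, 428, 459.7, 76.1 and 273 CPM in the same order. Both were below their day 4 levels in both day 5 libraries, and lowest away from the embryo.

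**Figure D4:**
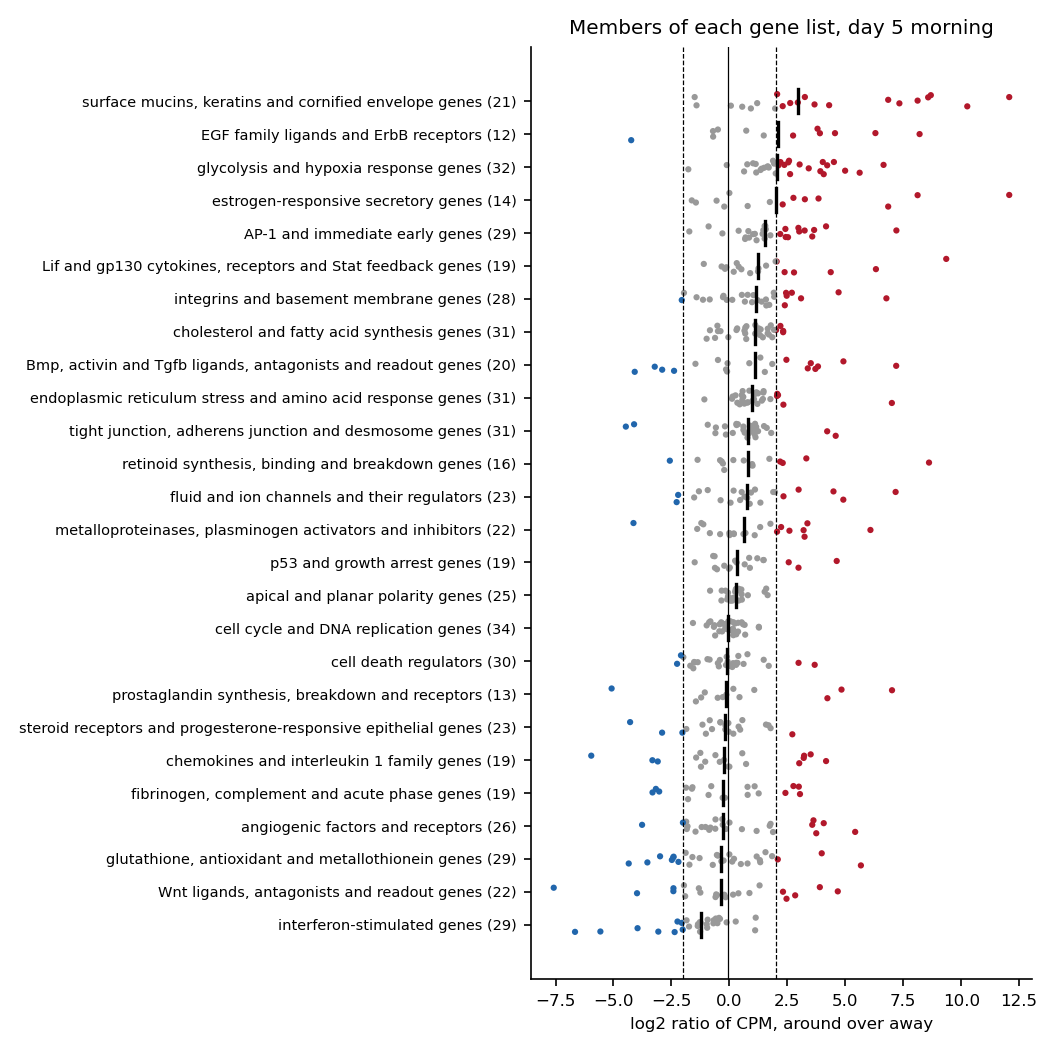
Log2 ratio of CPM (around over away, prior count of 2) of each tested member of the pathway lists on the horizontal axis, 1 row a list with its number of members in brackets and a bar at the median. The hypoxia, cornified envelope and immediate early lists lie to the right, with medians of 2.06, 2.95 and 1.52, and the interferon list to the left at -1.24.

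Defence and matrix-clotting genes were mixed. Of 19 fibrinogen, complement and acute phase genes, 4 were 4-fold higher and 3 lower, with a median log2 ratio of -0.29. The fibrinogen chain genes *Fga* and *Fgg* were at 0, 0, 0.569, 26.3 and 210.2 and 0, 0, 0.758, 49.6 and 265 CPM, 8.00-fold [7.28, 8.81] and 5.35-fold [4.99, 5.75] higher around the embryo, and were close to 0 before attachment. *Cd55*, a gene that shields cells from complement, was at 128, 196, 199, 780.2 and 78.3 CPM, 9.97-fold [9.43, 10.5] lower, and the copper carrier gene *Cp* at 27.98, 21.3, 48.7, 256 and 28.3 CPM, 9.04-fold [8.23, 9.94] lower. Both were highest in the library away from the embryo. Of 19 chemokine and interleukin 1 family genes, 5 were higher and 3 lower, with a median of -0.23. *Il1rn*, the gene of the interleukin 1 receptor antagonist, was at 1.39 and 27.1 CPM, *Il1r2*, of its decoy receptor, at 0.268 and 4.24 CPM, and *Cxcl5* at 10.3 and 97.1 CPM, while *Csf1*, of a macrophage growth factor, was lower at 20.7 and 1.97 CPM. Of these, *Il1r2* passed the filter only through the library around the embryo.

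The genes with the most reads on day 5, which are not compared with each other since CPM takes no account of length, included 4-fold differences in both directions. *Gjb2*, the gene of the gap junction protein connexin 26, was at 192, 21.5, 41.02, 1733 and 13898 CPM, 8.02-fold [7.93, 8.11] higher around. In contrast *Sult1d1* was at 1595, 2119, 1008, 3565 and 304 CPM, 11.7-fold [11.4, 12.1] lower, *Ggh*, of a folate-processing enzyme, at 36.3, 19.3, 37.7, 3411 and 772 CPM, 4.42-fold [4.34, 4.50] lower, and *S100g*, of a calcium-binding protein, at 436, 2100.1, 3239, 4608 and 1129.8 CPM, 4.08-fold [4.02, 4.14] lower. The cathepsin genes *Ctsd* and *Ctsb*, the ferritin gene *Fth1* and the translation factor gene *Eef1a1* were between the limits, with ratios of 0.762, 2.26, 1.09 and 0.847 around over away.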

How the data were processed

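RNA-seq libraries of luminal layer from wild-type mice (5 in all) were read, and the day 5 pair was compared. The study's methods describe SMART-seq v.4 amplification of low-input RNA, and the submitters' processing notes name HISAT2, featureCounts of Subread 2.0.0 and GRCm38 (mm10). For 23420 genes the authors deposited read counts without normalization, with coordinates and a length in bases used here for RPKM. The gene annotation, strand setting and handling of reads with several alignments are not given in the sources used here, and amplified reads without molecular identifiers are not independent molecules.

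Counts were scaled by TMM over 5 libraries (edgeR 4.0.16, R 4.3.3) and read with Python 3.11.15, pandas 2.3.3, numpy 2.4.6 and scipy 1.17.1. Plots used matplotlib 3.10.9. Genes averaging 1 CPM or more were kept, log2 values carry a prior count of 2, and a gene was called at 4-fold. The study's methods name edgeR with a false discovery rate, which cannot be estimated with 1 library a side. Intervals of count ratios are exact Clopper-Pearson at 95%. The steps were tested on simulated data.

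Lists (33, with 764 of 765 genes in the table) are described by counts and medians. The members and lists were chosen with earlier results of these data known. Named were the 15 genes with the largest ratio each way at 20 CPM or more, up to 3 called members each way of a list (otherwise its extremes), other-cell markers at 20 CPM, a fixed set of uterine genes and the 10 highest CPM of each day 5 library. Other genes are marked in the text. Emr1 and Sc4mol are the table's names for *Adgre1* and *Msmo1*. *Muc16* had no entry, and 27 names had the form of dates. Alternatives were DESeq2 1.42.0 size factors, library totals with or without Rn45s and Lars2, TMM from the compared pair, other filters, another prior count and other fold limits. A gene that the rule selected for naming is not reported here and stays in the counts.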

Additional observations from a re-analysis of the deposited data

How the results depend on the processing

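Of the 216 genes selected for naming, 154 were called, and none of these turned direction under the 5 scaling and prior count alternatives. Of the others, 7 with ratios near 1 did, and 15 of the 216 crossed 4-fold under at least 1 alternative. There were 8 alternatives for each of 33 list medians. Of the 264 values, 253 stayed within the interval of the median or, for the glands, close to the median itself. The gland list, with 5 genes, has no such interval. In all, 6 lists, all but that of the glands with a median within 0.3 of 0, changed sign under at least 1 alternative. Library totals put the median of all genes at -0.36 in place of -0.05, and totals without Rn45s and Lars2 at -0.33. With these, in the same order, the polarity median turned from 0.27 to -0.0382 and -0.0111 and that of the cell cycle went from -0.06 to -0.37 and -0.34, all above the shifted median of all genes or within 0.02 units of it. The gland median, over 5 genes, was 2.23 and became 1.71 with TMM from the compared pair, 1.94 with totals, 1.96 with totals without the pair of features, 2.33 with a prior count of 0.5, 1.13 with the filter on the compared pair, 1.13 without a filter and -3.55 at a mean of 5 CPM, where fewer genes are left. The causes were not tested. The 757 higher genes became 1729 at 2-fold, 407 at 8-fold, 463 at 5 CPM and 1301 without a filter. The 641 lower genes became 1932, 204 and 358 under the first 3 of these, and 313 where the whole counting interval had to lie beyond 4-fold. The 488 genes 4-fold apart on day 4 became 1829, 164, 236, 1022 and 220 for 2-fold, 8-fold, 5 CPM, no filter and the counting interval. No replicate could be left out with 1 library a side. No paired analysis was possible because each group has 1 library and the result comes from no test. Depth limits genes near the floor of 3 counts, and a single pair of libraries limits all else.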

Other observations

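Further gene groups that the report does not describe were also compared between the libraries around and away from the embryo. Of 31 tested genes of the endoplasmic reticulum stress and amino acid responses, 5 were 4-fold higher and 0 lower around it, with a median log2 ratio of 0.99, and 30 lay above the median of all genes. *Slc7a11*, the gene of the cystine importer, was at 165, 44.4, 13.7, 4.99 and 657 CPM in the libraries of day 3, day 4 morning and evening, and day 5 away and around, 132-fold [107, 163] higher around. *Chac1*, of a glutathione-degrading enzyme, was at 5.41 CPM away and 27.7 CPM around, whereas *Atf4*, of a transcription factor of this response, was at 147 and 218 CPM. The lowest ratio was that of the amino acid transporter gene *Slc7a5*, at 22.1 and 10.4 CPM. Of 31 genes of cholesterol and fatty acid synthesis, 4 were 4-fold higher and 0 lower, with a median log2 ratio of 1.12. The sterol genes *Sqle*, *Idi1* and *Sc4mol* were at 9.17, 3.16 and 70.7 CPM away and 46.2, 16.3 and 325 CPM around, and *Hmgcs1* was at 47.9 and 151 CPM.

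Angiogenic ligands and receptors were found on both sides, with 5 of 26 higher, 2 lower and a median log2 ratio of -0.30. *Flt1*, a Vegf receptor gene, was at 1.73, 1.34, 2.28, 1.23 and 57.8 CPM over the 5 libraries, 46.9-fold [31.1, 74.3] higher around. *Pgf*, the placental growth factor gene, whose product binds that receptor, was at 12.8, 20.7, 41.5, 63.05 and 4.53 CPM, 13.9-fold [11.1, 17.7] lower around. *Fgf1* was far higher before attachment, at 75.3, 218 and 30.2 CPM, than on day 5, at 0.322 CPM away and 5.75 CPM around. The endothelial marker *Cdh5* was at 7.13 and 71.4 CPM, and trophoblast markers were higher around as well. The part of these cells was not tested.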
